A study of Mus musculus with 15 samples.

Results

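The 40S ribosomal protein genes were 27 genes that encode proteins of the small ribosomal subunit: Rps2, Rps3, Rps3a1, Rps4x, Rps6, Rps7, Rps9, Rps10, Rps12, Rps13, Rps14, Rps15, Rps15a, Rps16, Rps18, Rps19, Rps20, Rps21, Rps23, Rps24, Rps25, Rps26, Rps27a, Rps28, Rps29, Rpsa and Fau. They were picked by gene symbol, with earlier results of these data known, and they are 27 of the 24819 genes in the deposited tables. The list does not hold every small-subunit protein gene, and the 40S genes or mRNAs below are these 27. RNA-seq was done in E14 mouse embryonic stem cells, a feeder-independent line grown here on gelatin with leukemia inhibitory factor and serum. The cells received an siRNA labelled siNT (the control) or an siRNA against the mRNA of 1 large-subunit protein, Rpl11, Rpl14, Rpl18 or Rpl23 (siRpl11, siRpl14, siRpl18 and siRpl23), with the same transfection reagent in all 5 groups. No group carried a deletion or a transgene. Each group had 3 libraries; the sample titles give 48 hours and the treatment protocol gives 3 days of knockdown. The labels do not say whether libraries of a group came from separate cultures, so the p-values below speak to the variation among these libraries alone, and that variation may be technical.

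The small subunit is built from 18S rRNA and ribosomal proteins. It binds the mRNA and holds the decoding centre, while the large subunit forms peptide bonds. The subunits are assembled along separate routes in the nucleolus and cytoplasm, and a shortage of one large-subunit protein is known to halt 60S production and, through free Rpl11 and Rpl5 bound to Mdm2, to engage p53. Rpl11 is itself the target in siRpl11, so this account of p53 need not hold for that group, and it was not tested. Ribosomal protein mRNAs of both subunits usually start with a run of pyrimidines, the 5' terminal oligopyrimidine (TOP) element, through which mTOR signalling controls their translation and storage. The 27 proteins were described in 2 structural groups: 12 of the head (Rps3, Rps10, Rps12, Rps15, Rps16, Rps18, Rps19, Rps20, Rps25, Rps27a, Rps28 and Rps29) and 15 of the body and platform.

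Expression was in FPKM, a fragment count divided by transcript length and by library size. Replicates 1 and 2 of each group were normalized together in the first table (10 libraries), and the third libraries were normalized separately in the second table (5 libraries). The tests used the first table; a value from the third libraries is 1 knockdown library against 1 siNT library and has no replicate check. The read depth of the libraries is not known. The relative depth read from the lowest FPKM steps ran from 0.697 to 1.396 in the first table and from 1.00 to 1.26 in the second. The mRNA of each target remained at 24.0% (Rpl11), 51.6% (Rpl14), 32.6% (Rpl18) and 36.3% (Rpl23) of its siNT level. Summed FPKM of 10 embryonic stem cell markers was 5402 to 8354 over the 15 libraries, with 6 to 8 of the 10 called lower in each knockdown, and that of 10 fibroblast markers was 4.26 to 20.4, with Dcn and Lum listed at 0 throughout. The fibroblast marker sum was lower in every knockdown library than in siNT, and the part of either marker list in the results below was not tested. In bulk RNA, fewer cells of a type and less RNA per cell cannot be told apart.

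The starts of these genes are shown because the TOP element is the feature that ribosomal protein mRNAs share. RefSeq start sites (build GRCm38.p6) were given for 23 of the 27 genes, with 27 starts. A run of at least 5 pyrimidines that begins with C exactly at the annotated start, searched on the gene's own strand only, was present at 6 of the 27 starts (22.2%), at 6 of 36 starts of untargeted 60S genes (16.7%) and at 823 of 32851 starts of all genes (2.51%). With the first C allowed within 5 bases of the start the shares were 40.7%, 33.3% and 16.1%. An annotated start can miss the true one by several bases, and a run that was not found says only that these letters are not at this annotated position. The first 3 windows belong to genes with a run at the annotated start, and the last 5 to Rps15, Rps28, Rps25, Rps2 and Rpsa, on which the results turn and which had none exactly there. Each window has 30 bases before the start and 20 from it on, with the run in capitals.
Rps6 (chr4:86857348-86857397, minus strand): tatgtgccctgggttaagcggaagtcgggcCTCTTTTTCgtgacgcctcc
Rps10 (chr17:27635225-27635274, minus strand): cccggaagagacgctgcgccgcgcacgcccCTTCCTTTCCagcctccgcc
Rps18 (chr17:33955646-33955695, minus strand): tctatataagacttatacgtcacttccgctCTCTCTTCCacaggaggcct
Rps15 (chr10:80292401-80292450, plus strand): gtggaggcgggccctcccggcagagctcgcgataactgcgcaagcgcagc
Rps28 (chr17:33824543-33824592, minus strand): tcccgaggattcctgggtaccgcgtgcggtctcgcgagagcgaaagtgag
Rps25 (chr9:44407684-44407733, plus strand): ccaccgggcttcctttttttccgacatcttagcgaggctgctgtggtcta
Rps2 (chr17:24720033-24720082, plus strand): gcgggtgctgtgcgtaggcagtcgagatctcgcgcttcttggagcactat
Rpsa (chr9:120127736-120127785, plus strand): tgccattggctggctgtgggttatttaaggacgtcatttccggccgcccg

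All 27 genes were above the filter (1 FPKM in at least 2 of the 10 libraries). FPKM is a level per length, so levels can be ordered between genes. In siNT, Rps12, a head protein of the beak, stood highest, at 3643 and 4121 FPKM in replicates 1 and 2 and 4778 in the third library. Rps14, a platform protein lost in the 5q- syndrome, was at 3497, 3826 and 3441 FPKM, and Rps26, which lies at the mRNA exit, at 3099, 3370 and 4374 FPKM. The ranges of Rps14 and Rps26 overlapped over the 3 libraries, and Rps12 was above both genes in each of the 3 libraries. The lowest 3 were Rps3a1 at 609.8, 652.0 and 471.0 FPKM, Rps20 at 560.0, 582.6 and 322.2 FPKM, and Rps15a at 210.3, 220.8 and 126.6 FPKM. Rps3a1, Rps20 and Rps15a kept this order in each of the 3 siNT libraries. The other 21 genes lay between these groups, from 827.3 FPKM (Rps6) to 3149 FPKM (Rps18) in siNT replicates 1 and 2. Ribosomal protein genes have many processed pseudogenes, and how the authors assigned reads shared with them is not given in the sources used here, so differences in level between genes are uncertain.

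**Figure D1:**
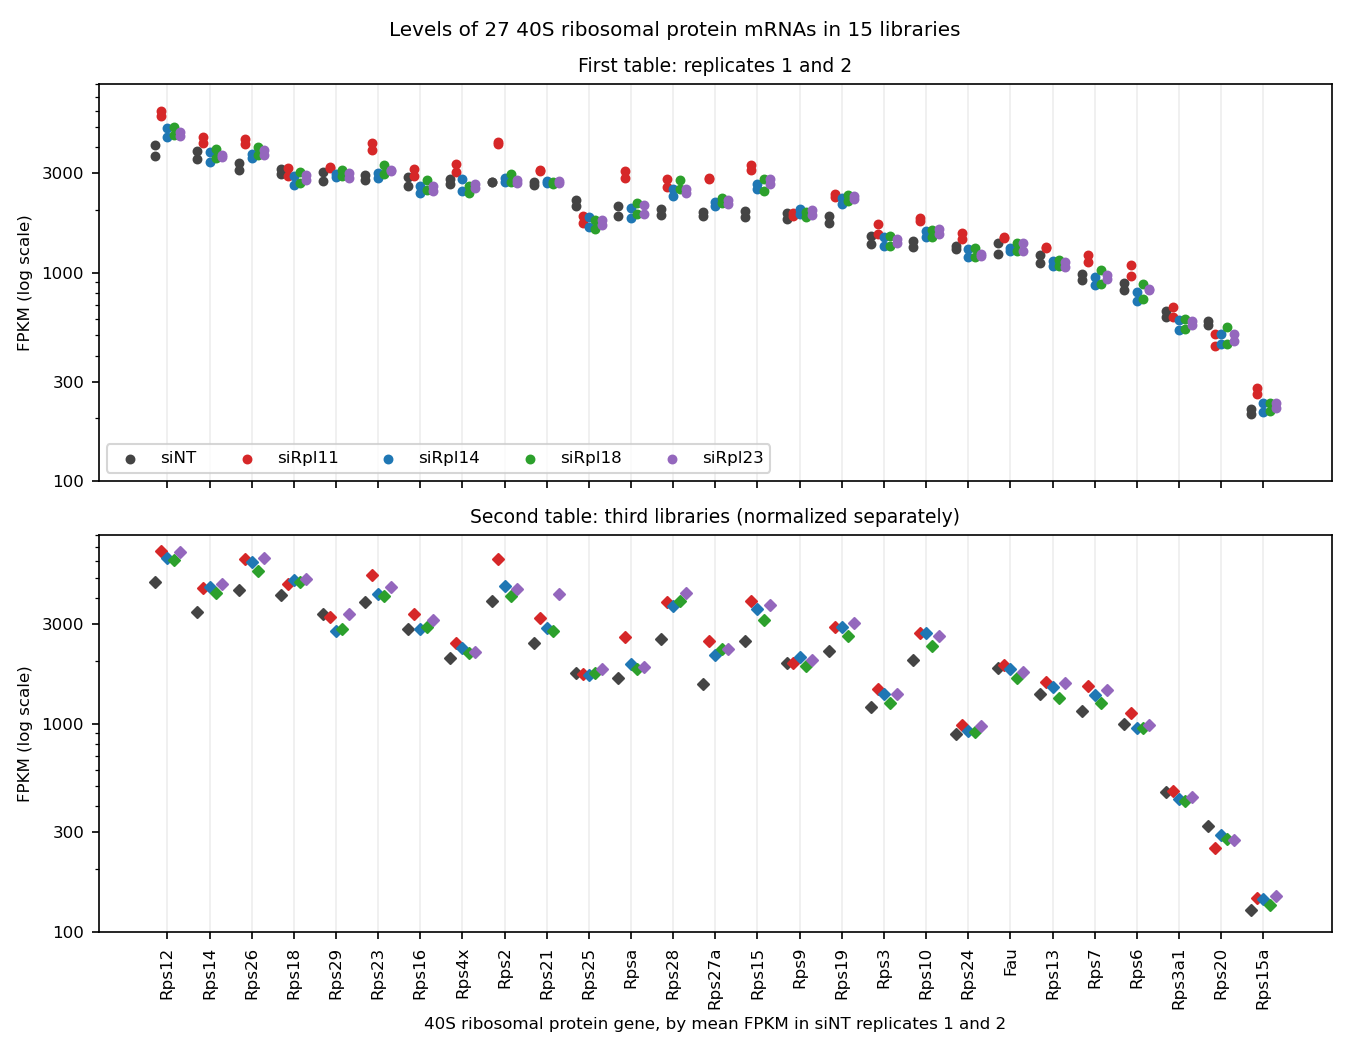
FPKM (log scale) of each of the 27 genes in every library, coloured by siRNA, with the first table above and the separately normalized second table below; genes are ordered by their mean in siNT replicates 1 and 2. The genes span 210.3 FPKM (Rps15a, siNT replicate 1) to 4121 FPKM (Rps12, siNT replicate 2) in siNT of the first table, and the red siRpl11 points are above siNT for Rps2, Rpsa, Rps27a and Rps15.

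The 40S genes moved as a block between replicates. In each of the 5 groups replicate 2 was higher than replicate 1 in 26 or 27 of the 27 genes, with medians of 0.07 to 0.14 on the log2 scale. That shift between libraries of one treatment is about as large as many of the differences between treatments below, and it sets their standard errors. The main tests did not pair libraries by replicate number. Differences are on the log2(FPKM + 1) scale with their standard errors, from limma with Benjamini-Hochberg adjustment over 12249 genes; a gene was called at an adjusted p under 0.05. Over the 5 groups 19 of the 27 genes differed by the moderated F test, where 84.4% of all genes did, and without siRpl11 replicate 2 it was 11.

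In siRpl11, 18 of the 27 genes rose and 2 fell, where 27.3% of all genes tested rose and 43.6% fell. The median difference of the 27 was 0.25, against -0.11 over all genes tested. Quantile normalization moved the median of all genes from -0.11 to 0.01 and that of the 27 to 0.08, and median-ratio scaling moved that of the 27 to 0.35. In the third libraries the median was 0.29 and 24 of the 27 were above 0. Both siRpl11 libraries of the first table were above both siNT libraries in 22 of the 27 genes and below in 2, against 33.9% and 51.1% of all genes. The 12 head genes divided into 6 that rose, 2 that fell and 4 not called, whereas 12 of the 15 body and platform genes rose and none fell. Leaving out siNT replicate 1 or siRpl11 replicate 2 left 12 rises of the 27.

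Rps15, a head protein near the decoding site, had the largest rise in siRpl11. It was at 1845 and 1969 FPKM in siNT and 3099 and 3284 FPKM in siRpl11, and at 2482 and 3876 FPKM in the third libraries. Every siRpl11 library was above its table's siNT libraries, by 67.3% in the means of the first table (0.74 ± 0.08, limma adjusted p = 1.23e-05). Rps2, a body protein at the mRNA entry channel, was at 2728 and 2737 FPKM in siNT and 4130 and 4258 FPKM in siRpl11, with 3858 and 6189 FPKM in the third libraries. The groups did not overlap, and the rise was 53.5% (0.62 ± 0.06, limma adjusted p = 1.09e-05). Rps12 went from 3643 and 4121 FPKM to 5649 and 5986 FPKM, a rise of 49.8% (0.59 ± 0.09, limma adjusted p = 0.000154), and was at 4778 and 6698 FPKM in the third libraries. Rpsa, the laminin-receptor homologue that joins the 40S particle late, was at 1878 and 2087 FPKM in siNT and 2838 and 3075 FPKM in siRpl11 (0.58 ± 0.09, limma adjusted p = 0.000237), and at 1662 and 2612 FPKM in the third libraries. All 4 were high in both siRpl11 replicates and in the third library, with no overlap with siNT. The other 14 rises were 0.18 to 0.57. Rps21 was among them at 0.21, and quantile normalization put it at -0.01.

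Rps20 and Rps25 fell in siRpl11. Rps20, a head protein, was at 560.0 and 582.6 FPKM in siNT and 442.7 and 507.1 FPKM in siRpl11, and at 322.2 and 251.7 FPKM in the third libraries. The siRpl11 libraries were all below siNT of their table (-0.27 ± 0.10, limma adjusted p = 0.0289). The call ended with median-ratio scaling (-0.17), with quantile normalization (-0.16) and without a filter. It was also lost without siNT replicate 1 (-0.30), siNT replicate 2 (-0.24) or siRpl11 replicate 1 (-0.17). Rps25, a head protein at the exit site that several viral internal ribosome entry sites need, was at 2092 and 2238 FPKM in siNT and 1731 and 1880 FPKM in siRpl11. The groups did not overlap (-0.26 ± 0.08, limma adjusted p = 0.0114), while the third libraries were close, at 1739 and 1721 FPKM. Median-ratio scaling (-0.16), a fit over all 15 libraries (-0.18) and leaving out siNT replicate 2 (-0.21) or siRpl11 replicate 1 (-0.20) ended the call.

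**Figure D2:**
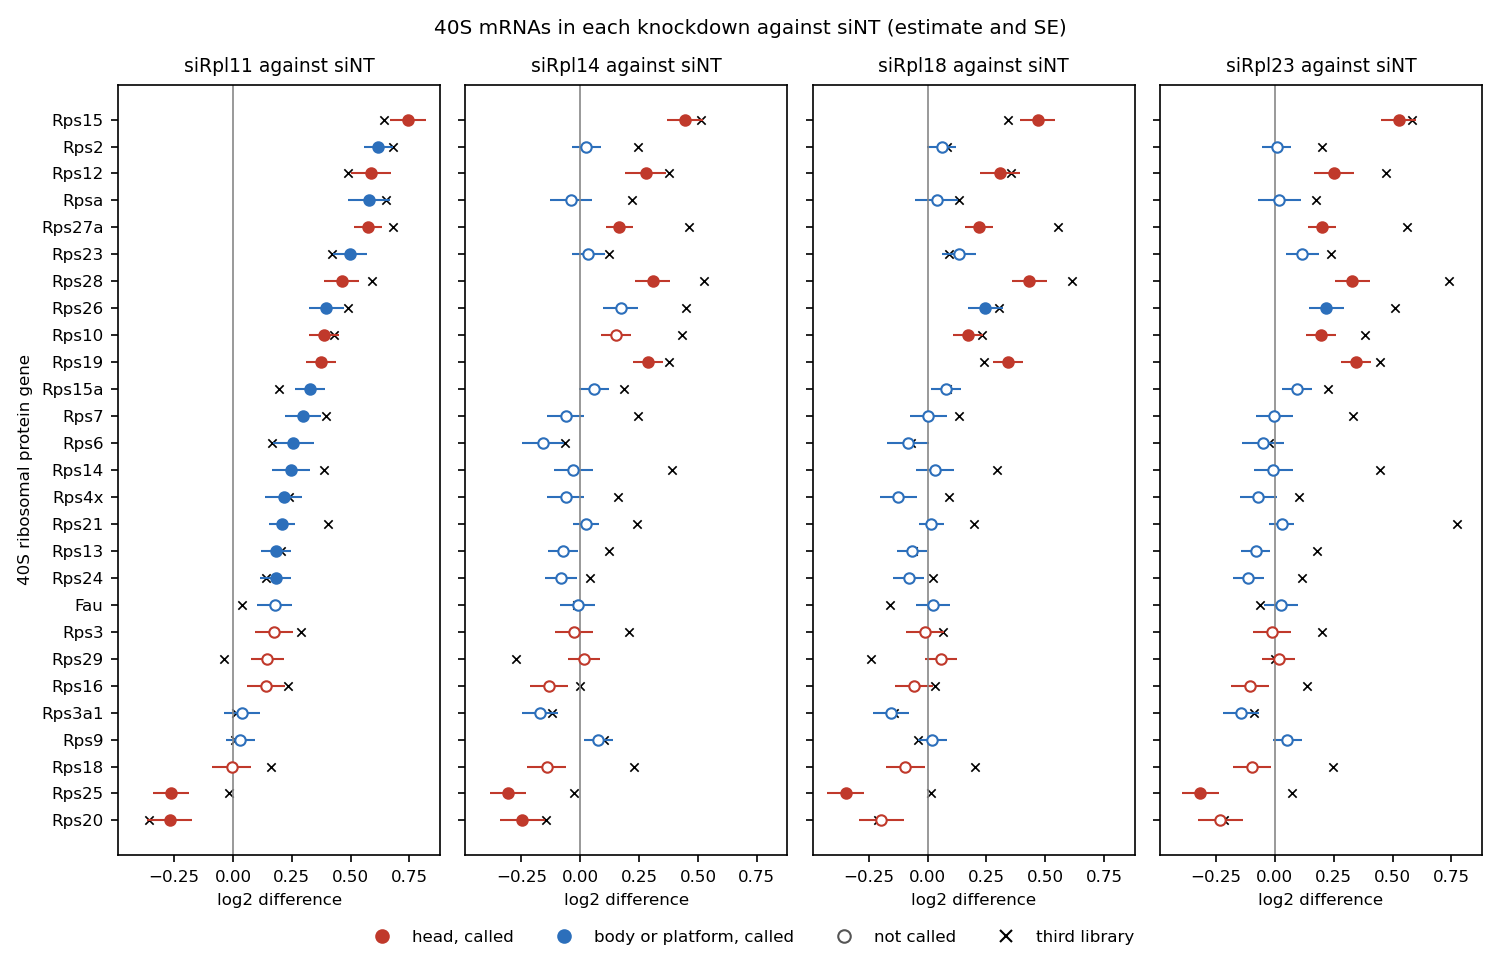
Log2 difference from siNT of each gene in the 4 knockdowns (x axis), with genes ordered by the siRpl11 value; circles are first-table estimates with their standard errors (red for head, blue for body and platform, filled when called) and crosses are the third libraries. In siRpl11 filled points cover 20 genes of both colours; in the other knockdowns the filled points are head genes, except Rps26 in siRpl18 and siRpl23.

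In siRpl14, siRpl18 and siRpl23, which share the siNT libraries with siRpl11, far fewer of the 27 genes were called in the main tests. Most of these were head genes. In siRpl14 5 rose and 2 fell (33.3% and 29.5% of all genes tested), with a median of -0.01 against 0.02 for all genes. In siRpl18 7 rose and 1 fell (32.8% and 34.7%), with a median of 0.02 against -0.02, and in siRpl23 7 rose and 1 fell (34.9% and 30.8%), with a median of 0.02 against 0.02. These shares of the 27 were below those of all genes. The libraries did not overlap with siNT in 7 genes above and 6 below in siRpl14 (42% and 38.5% of all genes), 8 and 4 in siRpl18 (40.2% and 42.8%), and 9 and 6 in siRpl23 (43% and 39.6%). The 7 calls of siRpl14 were all among the 12 head genes. Of the 15 body and platform genes only Rps26 was called, in siRpl18 and siRpl23. Other settings called more of these 15. In siRpl14, siRpl18 and siRpl23 quantile normalization called Rps7, Rps9, Rps23 and Fau higher. A fit with the replicate number as a term called Rps3a1 and Rps24 lower in all of them. In the third libraries 12, 10 and 12 of the 15 were above 0, beside 8, 10 and 10 of the 12 head genes. Medians in the third libraries were higher, at 0.21, 0.09 and 0.20, with 20, 20 and 22 of the 27 above 0. The first-table medians took either sign. Without siNT replicate 1 they were -0.09, -0.03 and -0.05, and without siNT replicate 2 they were 0.04, 0.07 and 0.06. Leaving out 1 library of the knockdown itself gave -0.04 to 0.04, -0.04 to 0.11 and -0.03 to 0.05. In every group replicate 2 was higher in nearly all of the 27 genes. The replicate left out therefore sets the direction of each shift. Quantile normalization gave medians of 0.09, 0.08 and 0.10 and raised the rises to 12, 13 and 13.

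Rps15 was the largest rise in each of these knockdowns. Beside 1845 and 1969 FPKM in siNT it was at 2522 and 2669 FPKM in siRpl14, 2474 and 2811 FPKM in siRpl18, and 2678 and 2816 FPKM in siRpl23. No knockdown library overlapped siNT, and the rises were 36.1% (0.44 ± 0.08, limma adjusted p = 0.000536), 38.6% (0.47 ± 0.08, 0.000333) and 44.0% (0.53 ± 0.08, 0.00016). The third libraries stood at 3541, 3149 and 3713 FPKM against 2482 FPKM in siNT.

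Rps28, a small head protein beside the mRNA exit, was at 1893 and 2027 FPKM in siNT. It was at 2339 and 2514 FPKM in siRpl14, 2523 and 2770 FPKM in siRpl18, 2401 and 2525 FPKM in siRpl23, and 2575 and 2825 FPKM in siRpl11. All 8 knockdown libraries were above siNT, by 0.31 ± 0.08, 0.43 ± 0.08, 0.33 ± 0.08 and 0.46 ± 0.08 in that order (limma adjusted p = 0.00494, 0.00055, 0.00312 and 0.000317). In the third libraries siNT was at 2535 FPKM and the knockdowns at 3652, 3880, 4234 and 3813 FPKM.

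Rps19, the protein most often mutated in Diamond-Blackfan anaemia, was at 1738 and 1880 FPKM in siNT, 2145 and 2269 FPKM in siRpl14, 2213 and 2370 FPKM in siRpl18, and 2253 and 2339 FPKM in siRpl23. The groups did not overlap, with rises of 0.29 ± 0.06, 0.34 ± 0.06 and 0.34 ± 0.06 (limma adjusted p = 0.00299, 0.000923 and 0.000913); siRpl11, at 2305 and 2383 FPKM, gave 0.37 ± 0.06. The third libraries were at 2230 FPKM in siNT and at 2895, 2636, 3036 and 2893 FPKM in siRpl14, siRpl18, siRpl23 and siRpl11. Rps15, Rps19 and Rps28 were called in siRpl14, siRpl18 and siRpl23 under every alternative run.

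Rps12 rose less in these knockdowns than in siRpl11 (siRpl11 against the others, 0.31 ± 0.07, limma adjusted p = 0.00338), a difference that quantile normalization took to 0.03 and no call. It was at 4464 and 4939 FPKM in siRpl14, 4599 and 5002 FPKM in siRpl18, and 4525 and 4708 FPKM in siRpl23, with 6205, 6113 and 6638 FPKM in the third libraries. All were above siNT of their table, by 0.28 ± 0.09, 0.31 ± 0.09 and 0.25 ± 0.09 (limma adjusted p = 0.017, 0.00925 and 0.025). Without siNT replicate 1 these fell short of a call, at 0.19, 0.22 and 0.16. The calls were also lost without siRpl14 replicate 2 (0.20) in siRpl14 and without siRpl18 replicate 2 (0.25) in siRpl18. In siRpl23 the call was lost without siRpl23 replicate 1 (0.28) or 2 (0.22). Testing without a filter ended the calls of siRpl14 and siRpl23, and fitting only the groups compared ended those of siRpl14 and siRpl18. Rps27a, which encodes ubiquitin fused to a head protein, was called in all 4 knockdowns. Outside siRpl11 its calls did not hold under every alternative. Its first-table values were 1951 and 1866 FPKM in siNT, 2820 and 2857 FPKM in siRpl11, 2092 and 2192 FPKM in siRpl14, 2161 and 2281 FPKM in siRpl18, and 2241 and 2143 FPKM in siRpl23. The knockdown libraries were all above siNT, with differences of 0.57, 0.17, 0.22 and 0.20. Without siNT replicate 2 those of siRpl14, siRpl18 and siRpl23 were 0.13, 0.19 and 0.17 and no longer called. The call was also lost without siRpl14 replicate 2 (0.13) in siRpl14 and without siRpl23 replicate 1 (0.17) in siRpl23. The siRpl14 call also ended without a filter, and those of siRpl14 and siRpl18 with only the groups compared. The third libraries were at 1548 FPKM in siNT and 2480, 2131, 2273 and 2288 FPKM in the knockdowns in the same order.

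Rps25 was the fall called in all 4 knockdowns. It was at 2092 and 2238 FPKM in siNT, 1655 and 1848 FPKM in siRpl14, 1622 and 1779 FPKM in siRpl18, and 1686 and 1791 FPKM in siRpl23. The knockdown libraries lay below siNT, by 0.31, 0.35 and 0.32 on the log2 scale (limma adjusted p = 0.00585, 0.00254 and 0.00467). In the second table siNT was at 1739 FPKM and the knockdowns at 1707, 1756 and 1828 FPKM. A fall of this size was not seen there. With all 15 libraries the siRpl23 difference was -0.19 and no longer called, and without siRpl14 replicate 1 that of siRpl14 was -0.23 and no longer called. Rps20 fell in siRpl14, at 454.5 and 509.8 FPKM (-0.25 ± 0.10, limma adjusted p = 0.0466). Quantile normalization (-0.07) and testing without a filter ended that call. It was also lost without either siNT replicate, siRpl14 replicate 1 or either siRpl23 replicate. Rps20 was at 452.8 and 548.2 FPKM in siRpl18 and 468.5 and 504.9 FPKM in siRpl23. These differences of -0.20 and -0.23 were not called in the main test. They were called lower over all 15 libraries (-0.20 and -0.23, limma adjusted p = 0.0248 and 0.0142). That of siRpl23 was also called lower with median-ratio scaling (-0.26) and with only the groups compared (-0.23). The third libraries were at 291.5, 277.9 and 277.2 FPKM against 322.2 FPKM in siNT. Every knockdown library of Rps20 was therefore below every siNT library of its table.

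Among the most abundant and the least abundant genes, Rps14 was at 4207 and 4472 FPKM in siRpl11, above siNT (0.25 ± 0.08, limma adjusted p = 0.0204), and 3401 to 3938 FPKM in the other knockdowns, which overlapped siNT. In the second table its libraries were at 4493 FPKM in siRpl11, 4508 in siRpl14, 4217 in siRpl18 and 4686 in siRpl23. All were above 3441 FPKM in siNT. The siRpl11 call ended without siNT replicate 1 (0.18), without siRpl11 replicate 2 (0.20), without a filter and with quantile normalization (0.07). Rps26 was at 4149 and 4359 FPKM in siRpl11, 3554 and 3724 in siRpl14, 3655 and 4018 in siRpl18, and 3664 and 3863 in siRpl23, with the third libraries at 6146, 5975, 5402 and 6241 FPKM. All were above siNT, and the differences of 0.40, 0.17, 0.25 and 0.22 were called except in siRpl14 (limma adjusted p = 0.0682). The siRpl14 difference was called over all 15 libraries (0.26) and with quantile normalization (0.27). The calls of siRpl18 and siRpl23 were lost without siNT replicate 1 (0.19 and 0.16). They were also lost without siRpl18 replicate 2 (0.18) in siRpl18, and without siRpl23 replicate 1 (0.26) or 2 (0.18) in siRpl23. Testing without a filter ended both calls, and fitting only the groups compared ended that of siRpl18. Rps15a was at 261.6 and 280.2 FPKM in siRpl11 (0.33 ± 0.06, limma adjusted p = 0.000985) and 213.5 to 237.4 FPKM in the other knockdowns; in the second table it was at 145.0, 144.0, 134.1 and 148.3 FPKM against 126.6. Only siRpl11 passed for Rps15a against siNT. Rps3a1 was at 614.2 and 682.6 FPKM in siRpl11 and 531.2 to 599.6 FPKM in the others, with the third libraries at 474.5, 433.3, 425.9 and 443.2 FPKM against 471.0. None of its differences from siNT in the first table was called (0.04, -0.17, -0.15 and -0.14), but over all 15 libraries those of siRpl14 and siRpl18 were called lower (-0.15 in both, limma adjusted p = 0.0286 and 0.0303), as was that of siRpl14 with median-ratio scaling (-0.19).

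The first-table tests did not tell the 27 genes apart among siRpl14, siRpl18 and siRpl23. None of 81 tests (27 genes in 3 pairs) was called by limma, and none had an unadjusted p under 0.05. On levels relative to the mean of the 27, described below, 0 were called and 8 had an unadjusted limma p under 0.05. Of all genes tested 0.098% were higher and 0.416% lower in siRpl14 against siRpl23, 5.96% and 8.3% in siRpl18 against siRpl14, and 1.07% and 2.44% in siRpl18 against siRpl23. The differences ran from -0.11 (Rps6, siRpl14 against siRpl23) to 0.12 (Rps28, siRpl18 against siRpl14). Their 95% confidence intervals reached from -0.31 to 0.29, which leaves room for differences as large as several of the rises above. In the third libraries the median was -0.06 in siRpl14 against siRpl23, -0.07 in siRpl18 against siRpl14 and -0.12 in siRpl18 against siRpl23. There 8, 5 and 1 of the 27 genes were above 0, beside 7, 23 and 16 in the first table.

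Set directly against the mean of the other 3 knockdowns, siRpl11 had 20 of the 27 genes higher and 0 lower, where 18.4% and 44.2% of all genes tested were higher and lower. The median was 0.24 against -0.12 for all genes, and 0.12 with 22 of the 27 above 0 in the third libraries. Of the body and platform genes 14 of 15 were higher, and of the head genes 6 of 12. Both siRpl11 libraries were above all 6 others in 21 of the 27 genes and below them in 0, against 17.9% and 42.9% of all genes. This comparison depended on the scaling: quantile normalization gave 6 higher and 6 lower with a median of 0.02, and median-ratio scaling gave 25 higher with a median of 0.35. Without siRpl11 replicate 2 there were 12 higher.

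Rps2 and Rpsa differed most between siRpl11 and the other knockdowns. Rps2 was at 4130 and 4258 FPKM in siRpl11 and between 2704 and 2963 FPKM in the 6 libraries of the other knockdowns, which enclosed neither siRpl11 value (0.59 ± 0.05, limma adjusted p = 4.66e-06). In the second table its libraries were at 6189 FPKM in siRpl11 and 4579, 4085 and 4428 FPKM in the others. Rpsa was at 2838 and 3075 FPKM in siRpl11 and 1825 to 2168 FPKM in the others (0.57 ± 0.07, limma adjusted p = 8.2e-05), with the third libraries at 2612 FPKM and at 1938, 1825 and 1878 FPKM. In both tables these siRpl11 libraries stood apart, and both calls held under every alternative run. Rps23, a body protein of the decoding centre, was at 2775 and 2928 FPKM in siNT and 3879 and 4171 FPKM in siRpl11, against 2835 to 3282 FPKM in the others. That difference of 0.40 ± 0.06 (limma adjusted p = 0.000178) turned to -0.04 with quantile normalization. In the third libraries Rps23 was at 3847 FPKM in siNT, 5142 in siRpl11 and 4183, 4100 and 4535 in the others. Rps27a gave 0.38 ± 0.05 (limma adjusted p = 6.9e-05) and was not called after quantile normalization (0.11).

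The division of the 27 mRNAs among themselves was measured as each gene's log2 level relative to the mean of the 27 in the same library, a ratio in which a scaling factor between libraries nearly cancels. It removes the shift shared by the block, and since the 27 values sum to 0 in a library, some must be lower where others are higher. On this measure 21 of the 27 genes differed among the 5 groups (moderated F, limma adjusted p under 0.05), where 82.9% of all genes did so relative to the same mean. Against siNT, 10 genes were higher and 11 lower in siRpl11 (9.67% and 60.3% of all genes), 7 and 9 in siRpl14 (25.5% and 24.9%), 8 and 9 in siRpl18 (23.8% and 33.3%), and 8 and 8 in siRpl23 (25.6% and 28.2%). Each value below is the change from siNT in that relative level, not a distance from the mean itself. The standard errors were smaller than before, 0.03 for Rps15 in place of 0.08.

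Rps15, Rps25, Rps28 and Rps2 had the largest F values. The relative level of Rps15 was higher than in siNT by 0.47 in siRpl11, 0.43 in siRpl14, 0.42 in siRpl18 and 0.48 in siRpl23, each ± 0.03 (limma adjusted p = 6.81e-08 at most), and by 0.35, 0.33, 0.23 and 0.33 in the third libraries. Its relative rise in siRpl11 did not differ detectably from that in the other knockdowns (0.03 ± 0.02, limma adjusted p = 0.201). The relative level of Rps25 fell by 0.53, 0.33, 0.40 and 0.36 on the log2 scale in siRpl11, siRpl14, siRpl18 and siRpl23, each ± 0.03. Here the third libraries had the same sign, at -0.31, -0.21, -0.10 and -0.18. The FPKM of Rps25 there stayed close to the 1739 of siNT. It was slightly below in siRpl11 (1721) and siRpl14 (1707) and above in siRpl18 (1756) and siRpl23 (1828). That of Rps28 was higher by 0.19 in siRpl11 and by 0.29, 0.38 and 0.29 in the others, with the third libraries at 0.30, 0.34, 0.50 and 0.49.

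The relative level of Rps2 was called different from siNT in siRpl11 alone among the 4 knockdowns, higher by 0.35 ± 0.03 (limma adjusted p = 1.75e-06), against 0.01, 0.01 and -0.04 in siRpl14, siRpl18 and siRpl23. The test of siRpl11 against the others gave 0.35 ± 0.03 (limma adjusted p = 2.55e-07), and the third libraries gave 0.39 against 0.06, -0.03 and -0.05. Rpsa did the same, with 0.31 in siRpl11 and a difference from the others of 0.34 ± 0.03 (limma adjusted p = 4.47e-07). In the other direction the relative level of Rps19 was 0.10 higher than in siNT in siRpl11 and 0.27 to 0.30 higher in the others, a difference of -0.18 ± 0.02 (limma adjusted p = 2.02e-05). In that comparison of siRpl11 with the other knockdowns 8 genes were relatively higher and 8 lower (3.58% and 69.1% of all genes). Rps9, a body protein near the mRNA entry, fell by 0.24 in relative level in siRpl11. It was not called in the others (0.06, -0.03 and 0.01). Its FPKM itself did not fall in siRpl11, at 1880 and 1937 beside 1808 and 1930 in siNT. The second table had its relative level low in all 4 knockdowns, at -0.29, -0.08, -0.16 and -0.20. The FPKM there was 1946 in siNT and 1955, 2089, 1890 and 2017 in siRpl11, siRpl14, siRpl18 and siRpl23.

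**Figure D3:**
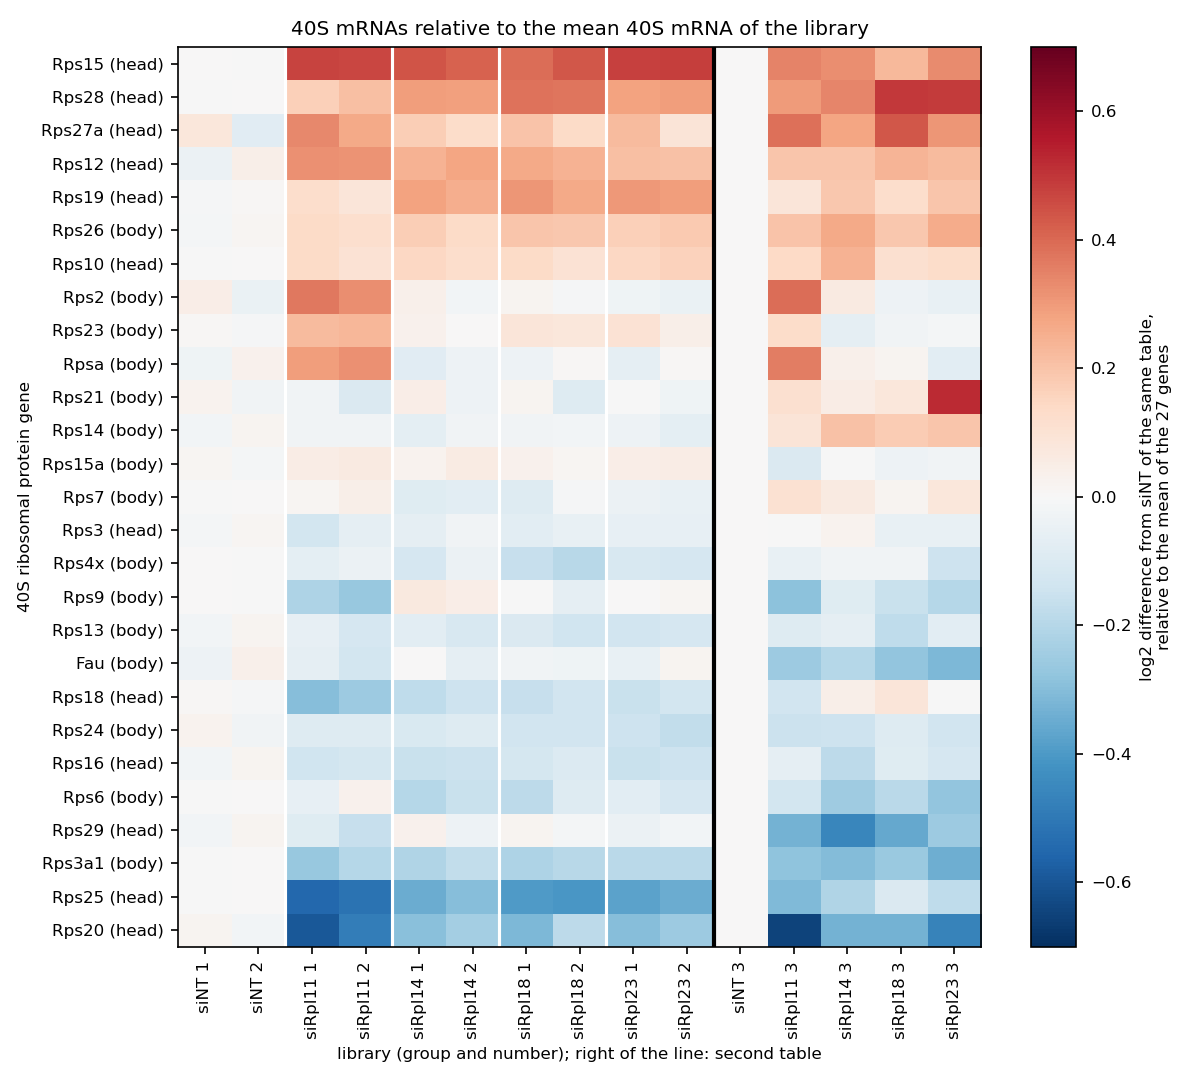
Heat map of each gene (rows, ordered by its mean over the knockdown libraries) in each library (columns), as the log2 level relative to the mean of the 27 genes minus the siNT value of the same table; red is relatively high, blue relatively low, and the black line divides the 2 tables. Rps15 and Rps28 are red and Rps25 and Rps20 blue in every knockdown library, while Rps2 and Rpsa are strongly red only in the 3 siRpl11 libraries.

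The 6 genes with a run at an annotated start were Fau, Rps6, Rps10, Rps15a, Rps18 and Rps21. In siRpl11, Rps6, the substrate of S6 kinase, rose by 0.26, as did Rps10 (0.39), Rps15a (0.33) and Rps21 (0.21), and Fau and Rps18 were not called. These 4 of 6 stand beside 18 rises of all 27 genes. The call of Rps6 was lost without siNT replicate 1 (0.20), without siRpl11 replicate 2 (0.17) and without a filter. Rps21 went to -0.01 with quantile normalization. Both falls of siRpl11 were outside these 6 genes, as are most of the 27, so this does not bear on the run. Rps25 had no run at the annotated start, and Rps20 had no RefSeq start among those given.

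The 40S mRNAs were next set beside 43 mRNAs of untargeted 60S proteins. The 60S genes had 18 higher and 2 lower in siRpl11 (median 0.18), 3 and 15 in siRpl14 (-0.10), 3 and 15 in siRpl18 (-0.06), and 4 and 16 in siRpl23 (-0.09). Of all genes tested 27.3% were higher and 43.6% lower in siRpl11, and 33.3% and 29.5% in siRpl14. The shares were 32.8% and 34.7% in siRpl18, and 34.9% and 30.8% in siRpl23. The 60S falls in siRpl14, siRpl18 and siRpl23 were near these shares, and the 60S rises there were below them. The 60S medians of the third libraries were all above 0, at 0.25, 0.06, 0.05 and 0.16, with 38, 30, 27 and 31 of the 43 above 0. There the called 60S genes kept their sign in 20 of 20, 10 of 18, 13 of 18 and 12 of 20 cases. The 40S genes had 18 and 2 of 27, 5 and 2, 7 and 1, and 7 and 1 in the same comparisons. The ratio of the geometric mean FPKM of the 27 genes to that of the 43 was 1.154 and 1.145 in siNT. It was 1.236 and 1.230 in siRpl11, 1.265 and 1.257 in siRpl14, 1.268 and 1.272 in siRpl18, and 1.262 and 1.255 in siRpl23. Each of the 8 knockdown libraries was above both siNT libraries, and the 2 values of a group were closer to each other than to siNT. In the third libraries the ratio was 1.077 in siNT and 1.114, 1.157, 1.139 and 1.150 in siRpl11, siRpl14, siRpl18 and siRpl23. The 27 genes held 9.56% and 9.97% of all FPKM in siNT, 11.5% and 11.9% in siRpl11 and 10.02% to 10.7% in the other knockdowns, with 9.85%, 11.9% and 10.8% to 11.5% in the third libraries.

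**Figure D4:**
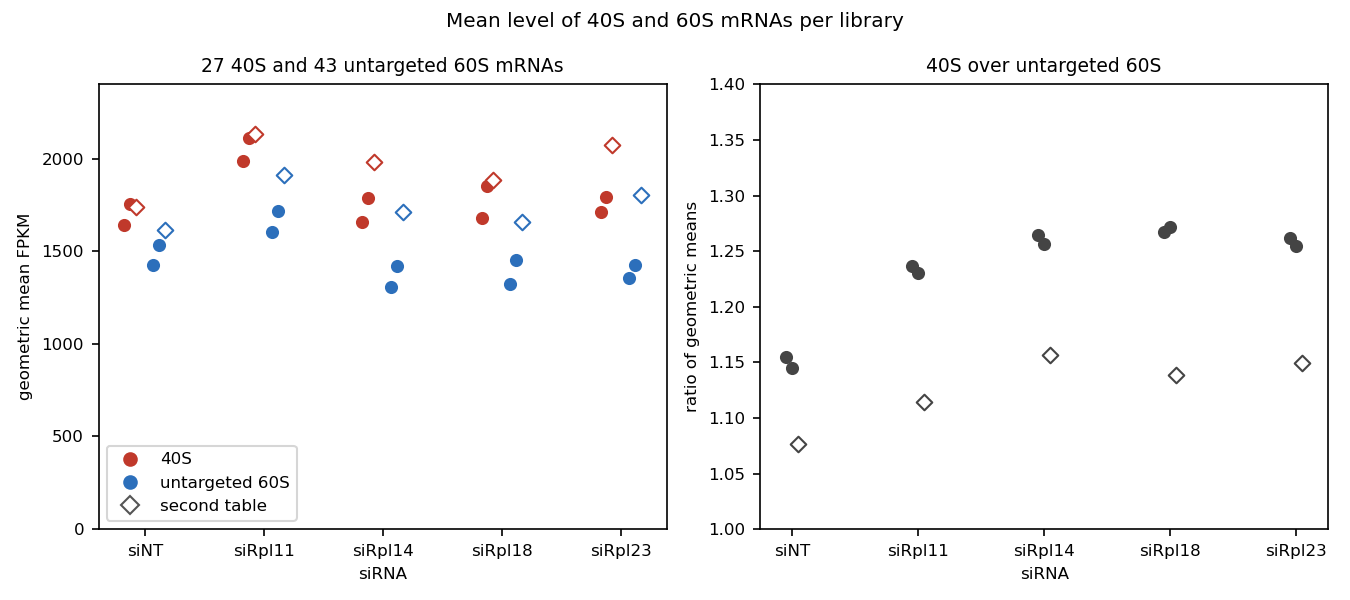
Left, geometric mean FPKM of the 27 40S genes (red) and of the 43 untargeted 60S genes (blue) in each library; right, their ratio, on an axis that starts at 1. Circles are the first table and open diamonds the second; the ratio is 1.145 to 1.154 in siNT and 1.230 to 1.272 in the knockdown libraries of the first table.

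Other genes tied to the small subunit were counted from lists of genes with known roles, beside the shares of all genes that rose and fell, which were 27.3% and 43.6% in siRpl11, 33.3% and 29.5% in siRpl14, 32.8% and 34.7% in siRpl18, and 34.9% and 30.8% in siRpl23. Of 7 other genes for small-subunit proteins, outside the 27, 5 rose and 0 fell in siRpl11, and 2 and 0 in siRpl14. The counts were 4 and 0 in siRpl18 and 3 and 0 in siRpl23, with medians of 0.36, 0.15, 0.18 and 0.24 in the 4 knockdowns. Among these 7, Rps27l, the p53-responsive copy of Rps27, rose by 0.65, 0.66, 0.75 and 0.79 in siRpl11, siRpl14, siRpl18 and siRpl23. Of 36 factors that assemble the 40S subunit, 23 rose and 5 fell in siRpl11, 20 and 5 in siRpl14, 20 and 8 in siRpl18, and 23 and 5 in siRpl23, with medians of 0.28, 0.15, 0.13 and 0.17. Rrp12, needed to export pre-40S particles, rose by 1.00, 0.62, 0.68 and 0.73 in siRpl11, siRpl14, siRpl18 and siRpl23, and Utp20, of the small-subunit processome, by 0.63, 0.62, 0.83 and 0.79. In the third libraries the medians of these factors were 0.11 in siRpl11 and 0.09 in siRpl14, and -0.02 and -0.03 in siRpl18 and siRpl23.

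Of 23 initiation factors that bind the 40S subunit, 13 rose and 3 fell in siRpl11, 8 and 5 in siRpl14, 8 and 7 in siRpl18, and 10 and 5 in siRpl23. The rises in siRpl14 and siRpl18 were close to the share of all genes. Eif1, which guards start codon choice, rose by 1.01, 0.65, 0.85 and 0.69 in siRpl11, siRpl14, siRpl18 and siRpl23, while Eif2s2, the beta subunit of eIF2, fell by 0.85, 0.79, 0.90 and 0.78. Of 15 TOP mRNAs that encode no ribosomal protein, 6 rose and 2 fell in siRpl11, 2 and 4 in siRpl14, 2 and 7 in siRpl18, and 3 and 6 in siRpl23. Hnrnpa1, an RNA-binding protein, rose in all 4, by 0.82, 0.47, 0.51 and 0.53.

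The differences of the 27 genes moved with the GC content of their transcripts, taken from GENCODE vM21, which had all 27. Pearson's r across the 27 genes, which share the same libraries and are not independent, was 0.46 in siRpl11, 0.56 in siRpl14, 0.53 in siRpl18 and 0.57 in siRpl23. It was 0.44, 0.43, 0.29 and 0.37 in the third libraries. Rps20, at 41.3% GC, and Rps15, at 60.1% GC, are the ends of the GC range and also the ends, or near the ends, of the differences. The Rps20 value came from 1 transcript of 3706 bases, beside medians of 382 to 1768.5 bases for the other genes. The weight of Rps20 in the correlations with GC and length was not tested. Over 11758 genes the Spearman rho of the difference with GC was -0.23, -0.04, -0.07 and -0.08, while that of the 27 was 0.30, 0.45, 0.47 and 0.46. In the second table the rho over all genes was -0.11, 0.10, 0.08 and 0.10. Differences between replicates of 1 treatment also moved with GC over the 27 genes, with r = -0.49 for replicate 2 minus 1 of siRpl11 and -0.44 for siRpl14. It was 0.27 for siNT, -0.28 for siRpl18 and 0.18 for siRpl23, so the sign varied. Between the 2 tables, the siNT levels of the 27 genes also differed with GC (r = 0.67). Transcript length gave Pearson's r of -0.33, -0.41, -0.36 and -0.39 with the first-table differences in siRpl11, siRpl14, siRpl18 and siRpl23. The Spearman rho was -0.08, -0.42, -0.39 and -0.42. The part of GC content or transcript length in the differences between groups was not tested.

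**Figure D5:**
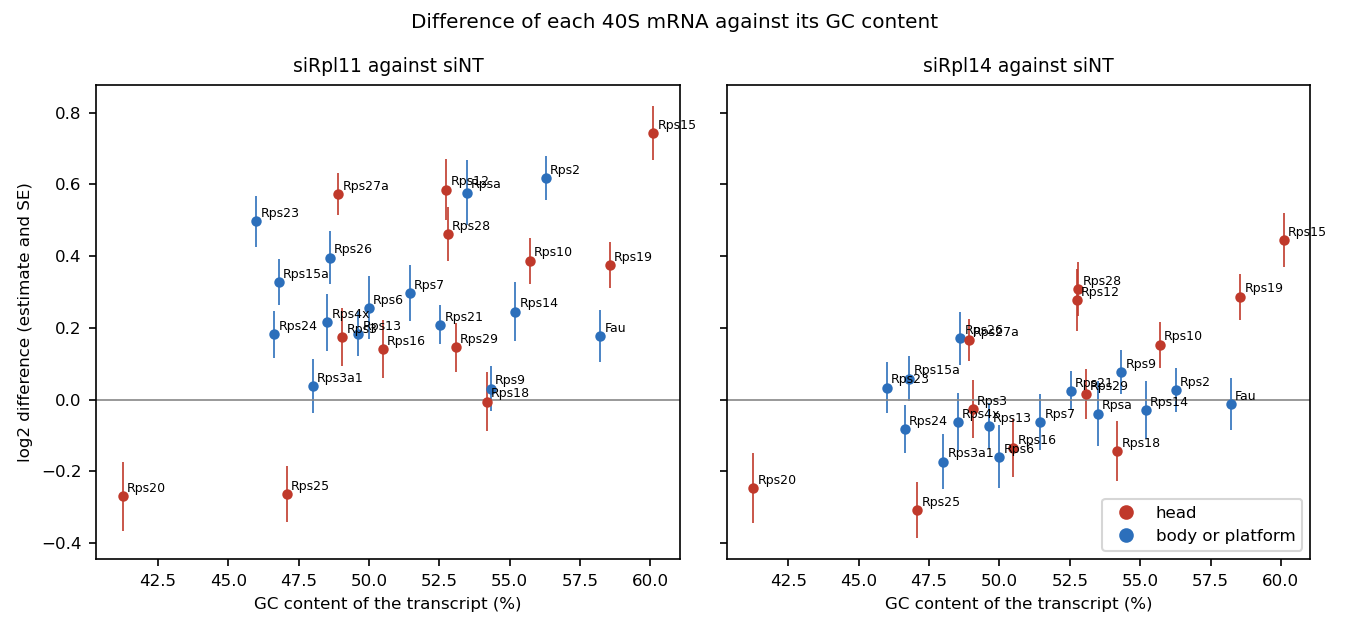
Log2 difference from siNT with its standard error (y axis) against transcript GC content (x axis) for the 27 genes in siRpl11 (left) and siRpl14 (right), red for head and blue for body and platform. Rps20 and Rps25 are low and Rps15 high in both, and Rps2 and Rpsa are high in siRpl11 and near 0 in siRpl14 (0.03 and -0.04).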

How the data were processed

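PolyA RNA-seq libraries, 15 in 5 groups, were used, prepared with a stranded mRNA kit per the labels. The authors deposited FPKM values; the submitters' processing notes name STAR, Cuffnorm and the build mm9, with no version or annotation stated there. Since the 2 tables were normalized separately, tests used the first (10 libraries), and 2 of its columns that match no sample were not used. FPKM was tested as log2(FPKM + 1) with limma 3.58.1 in R 4.3.3 (group means, trended eBayes, 5 residual degrees of freedom, genes reaching 1 FPKM in 2 libraries), after the code was tested on simulated data. The depth is unknown, which leaves counting error unstated. The members and gene lists were chosen with earlier results of these data known.

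Values in every library were given for the 3 highest and 3 lowest genes in siNT, the 4 largest called rises and falls of each comparison (siRpl11 against the other knockdowns included) and the 4 largest F values relative to the mean. Other members were given by ranges and counts; those named beyond the rule, such as Rps9, Rps10, Rps21 and the genes with a TOP run, were chosen after their values were seen. Of other lists at most 2 genes with the largest called differences were named. Alternatives were another pseudocount (0.1), no filter, quantile and median-ratio scaling, a replicate block, all 15 libraries, only the groups compared and each replicate left out; those on relative levels and on F and pairwise tests were added after the data were seen. One gene outside the 27 is not reported here.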

Additional observations from a re-analysis of the deposited data

How the results depend on the processing

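Counts of called 40S genes moved with several choices, and the cause was not tested. In siRpl11, the 2 falls became 1 without a filter, 0 after median-ratio scaling and 1 over all 15 libraries. In siRpl14, the 5 rises became 3 without a filter, 12 with quantile normalization, 8 with the replicate block and 3 with only the groups compared, and the 2 falls became 1 without a filter and 7 with the block. In siRpl18, the 7 rises became 13 with quantile normalization and 3 with only the groups compared, and the 1 fall became 2, 6 and 3 with quantile normalization, the block and all 15 libraries. In siRpl23, the 7 rises became 4 without a filter and 13 with quantile normalization, and the 1 fall became 2 with quantile normalization or median-ratio scaling, 7 with the block and 3 with only the groups compared. Against the other knockdowns, siRpl11 went from 20 higher and 0 lower to 6 and 6 with quantile normalization. Relative to the mean of the 27, quantile normalization took 11 lower genes of siRpl11 to 7, and all 15 libraries took 8 higher genes of siRpl11 against the others to 5.

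Leaving out 1 replicate at a time gave 12 to 19 rises and 0 to 2 falls in siRpl11, 3 to 7 and 0 to 3 in siRpl14, 4 to 8 and 1 to 3 in siRpl18, and 4 to 7 and 1 to 2 in siRpl23. It gave 12 to 20 higher in siRpl11 against the others, 11 to 22 for the F test (main value 19, lowest without siRpl11 replicate 2), and, relative to the mean, 7 to 11 lower in siRpl11 and 4 to 8 higher in siRpl11 against the others. With an arm of 1 library, that library is assumed to vary like the other groups.

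No label says that libraries with the same replicate number share a batch, and the main tests did not pair them. The correlation of deviations between groups was -0.086 to 0.195 over all genes and 0.10 to 0.81 over the 27 genes. In the 27 genes replicate 2 was nearly always higher in every group. A correlation over the 27 leaves out a shift common to them, so it does not measure that shared difference. The replicate block gave 22 rises in siRpl11 and 2 calls among the 81 pairwise tests, and it called Rps20 lower in siRpl18 and siRpl23 and Rps3a1 lower in siRpl14, siRpl18 and siRpl23.

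Of differences called before or after the change, those that turned direction did so with quantile normalization; uncalled differences turned under other settings too. In siRpl11 these were Rps9 (-0.14) and Rps21 (-0.0076); in siRpl14 Rps7 (0.15) and Fau (0.10); in siRpl18 Rps6 (0.17); in siRpl23 Rps6 (0.18) and Rps7 (0.19). In siRpl11 against the others they were Rps18 (-0.13), Rps19 (-0.21), Rps25 (-0.12), Rps28 (-0.16), Rps29 (-0.14), Rps21 (-0.037), Rps23 (-0.038), Rps26 (-0.033) and Fau (-0.032). Relative to the mean they were Rps6 in siRpl11 (0.14) and siRpl18 (0.055), Rps7 in siRpl18 (0.12) and Rps23 in siRpl11 against the others (-0.047). Over all genes, the share of calls that were higher in siRpl11 went from 38.5% to 50.9% with quantile normalization, and in siRpl11 against the others from 29.3% to 56.8%. Under every alternative, 11 of the 20 calls held in siRpl11, 3 of 7 in siRpl14, 4 of 8 in siRpl18, 3 of 8 in siRpl23 and 6 of 20 in siRpl11 against the others.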
